A study of Homo sapiens with 6 samples.

Results

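The genes described here are 46 genes of mitosis and of the G2 to M transition, taken from the expression table by gene symbol, of 60664 genes in all. All 46 were found and all 46 passed the filter on low values used for testing, a mean of at least 1 TPM (transcript abundance, corrected for gene length and set to the same library total) over the 6 libraries, as did 14286 genes of the table. RNA-seq was performed on 67R cells, which are NCI-H1975 lung adenocarcinoma cells carrying mutant EGFR selected for resistance to ASK120067, an EGFR inhibitor, under rising doses of the drug. In 3 libraries (siNC) the cells had received a negative control siRNA, and in 3 (siBCAT1) they had received siRNA against BCAT1, the cytosolic branched-chain amino acid transaminase. Both groups are the same resistant line, so no drug-sensitive cells enter the comparison, the study's methods give the name siBCAT1 to the siRNA siBCAT1-2, and the labels do not number the siRNA or say whether the 3 libraries of a group came from separate cultures. The p-values therefore measure the spread between these libraries, which may be technical.

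Entry into mitosis is driven by cyclin B bound to CDK1. The spindle assembly checkpoint then holds cells in metaphase until every kinetochore is attached, after which the anaphase-promoting complex (APC/C) marks securin and cyclin B for destruction, sister chromatids separate and the cell is divided by cytokinesis. Transcripts of these genes accumulate in G2 and M phase, and many of their promoters carry the cell cycle homology region, with the core TTTGAA, together with CCAAT boxes bound by NF-Y. These genes are abundant in dividing cultures and low in resting tissue.

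Promoter windows of 300 bases, from 250 before to 50 after the transcription start (RefSeq, GRCh38.p14), were matched by symbol for 39 of the 46 genes, with 49 windows. FOXM1, BUB3, TTK, UBE2C, AURKA, BIRC5 and TPX2 were not matched. TTTGAA, on either strand, was present in 33 of the 49 windows (67.3%) and in 15.2% of all 35116 windows of this length. CCAAT, on either strand, was present in 77.6% of the members' windows and in 34.6% of all windows, and both words together in 57.1% and 5.9%. A word found in a window is a match of letters and does not show that a factor binds there. The 8 stretches below, each 150 bases in the direction of the gene from 120 before to 30 after the start, are shown because they cover genes that were higher (CCNB2, PRC1, HMMR, CKS1B), genes that were lower (ANLN, CKS2) and genes that did not pass the test (CCNB1, PLK1) after the knockdown. Capitals mark TTTGAA or its reverse complement TTCAAA, and CCAAT or its reverse complement ATTGG, which overlap once in HMMR.
CCNB2, chr15:59105026-59105175, plus strand: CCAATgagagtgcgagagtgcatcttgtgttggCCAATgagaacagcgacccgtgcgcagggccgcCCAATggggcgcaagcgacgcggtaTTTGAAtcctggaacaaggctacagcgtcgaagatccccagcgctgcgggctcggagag
PRC1, chr15:90994506-90994655, minus strand: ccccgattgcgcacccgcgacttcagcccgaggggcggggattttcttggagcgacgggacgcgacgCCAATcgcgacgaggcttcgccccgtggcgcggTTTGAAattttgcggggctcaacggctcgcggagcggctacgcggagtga
HMMR, chr5:163460512-163460661, plus strand: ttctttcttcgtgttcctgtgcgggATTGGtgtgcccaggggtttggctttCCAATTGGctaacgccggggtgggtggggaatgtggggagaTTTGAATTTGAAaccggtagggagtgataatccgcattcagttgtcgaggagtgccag
CKS1B, chr1:154974561-154974710, plus strand: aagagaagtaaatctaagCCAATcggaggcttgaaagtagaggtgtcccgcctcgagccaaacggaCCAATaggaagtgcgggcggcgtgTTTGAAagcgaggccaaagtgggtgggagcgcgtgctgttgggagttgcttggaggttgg
ANLN, chr7:36389742-36389891, plus strand: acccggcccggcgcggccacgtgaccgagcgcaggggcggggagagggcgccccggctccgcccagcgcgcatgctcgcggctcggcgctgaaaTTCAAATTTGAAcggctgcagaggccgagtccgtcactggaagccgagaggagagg
CKS2, chr9:89311075-89311224, plus strand: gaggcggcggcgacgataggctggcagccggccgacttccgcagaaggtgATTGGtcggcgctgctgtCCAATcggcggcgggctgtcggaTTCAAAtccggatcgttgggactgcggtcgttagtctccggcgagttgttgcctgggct
CCNB1, chr5:69167030-69167179, plus strand: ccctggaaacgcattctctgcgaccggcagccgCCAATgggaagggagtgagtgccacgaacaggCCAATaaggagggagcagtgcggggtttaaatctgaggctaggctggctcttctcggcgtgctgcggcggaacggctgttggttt
PLK1, chr16:23678769-23678918, plus strand: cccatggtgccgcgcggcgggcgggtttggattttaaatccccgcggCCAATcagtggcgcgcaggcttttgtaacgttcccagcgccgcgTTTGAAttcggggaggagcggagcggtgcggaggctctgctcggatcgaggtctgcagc
The stretches of genes that were higher and of genes that were lower both held the TTTGAA word, and ANLN held it on both strands side by side with no CCAAT in the stretch. CCNB1 held 2 CCAAT words and no TTTGAA, which says only that these letters are not in its window. Over the matched genes, TTTGAA was present in 71.4% of the 14 windows of genes that were higher in siBCAT1 cells, in both windows of the genes that were lower, and in 63.6% of the 33 windows of genes that did not pass the test.

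BCAT1 itself had 42.7, 42.2 and 29.8 TPM in the siNC libraries and 8.78, 7.10 and 8.0 TPM in the siBCAT1 libraries. The groups were far apart (log2 fold change -2.12, standard error 0.15, limma, adjusted p = 0.000272). The 9 markers of an epithelial lung adenocarcinoma line summed to 2560 to 2970 TPM in siNC and 1660 to 1950 TPM in siBCAT1 libraries, most of it keratins. KRT7, KRT8, KRT18, KRT19 and CDH1 were called lower (-0.91, -0.47, -0.33, -1.41 and -2.41), EGFR (-0.41) and EPCAM (0.56, 0.91 to 2.61 TPM) did not pass, and the lung markers NKX2-1 and SFTPB were at 0.24 TPM or less. Of 16 markers of fibroblasts, leukocytes and endothelium, PTPRC, CD3E, DCN, LUM, PECAM1 and VWF were at 0.33 TPM or less in every library, and COL1A2 (177.5 to 249.5 TPM) and CD68 (29.1 to 59.95 TPM) were not. The summed level of the 6 leukocyte markers was 31.1 to 40.9 TPM in siNC and 54.5 to 61.7 TPM in siBCAT1 libraries, almost all of it CD68, that of the 6 fibroblast markers was 248 to 267 and 187 to 243 TPM, and that of the 4 endothelial markers was 0.79 to 0.96 and 1.04 to 2.69 TPM. The part of these markers in the results was not tested. Total depth is unknown, since TPM values keep none. The libraries listed from 23152 to 25043 genes above 0.

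As a list, the mitotic genes were slightly higher after BCAT1 knockdown. Of the 46 genes, 15 (32.6%) were higher and 2 (4.35%) were lower in siBCAT1 cells at an adjusted p under 0.05 (limma on log2(TPM + 1), Benjamini-Hochberg over all 14286 genes tested), and 29 did not pass. Over all genes tested, 16.7% were higher and 10.4% lower. The median log2 fold change was 0.15 for the mitotic genes, with a range from -0.64 to 0.66, and 0.04 for all genes. With quantile normalization of the libraries the median of the list was 0.07 and the split was 11 higher (23.9%) and 5 lower (10.9%), beside 14.3% and 13.1% of all genes, and with median-ratio scaling it was 12 higher (26.1%) and 3 lower (6.52%), beside 13.7% and 12.6%. In bulk RNA a larger share of cells in G2 and M phase and more of these transcripts per cell cannot be told apart.

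The median absolute log2 fold change was 0.21 for the mitotic genes and 0.24 for all genes tested, and the median residual SD between replicates was 0.094 and 0.148 on the log2 scale. The mitotic genes were also more abundant, with a median of 74.3 TPM against 13.9 TPM for all genes tested, and with the filter raised to a mean of 5 TPM the share of all genes that were higher was 21.7%, beside 32.6% of the list. The 3 siBCAT1 values lay above all 3 siNC values for 18 of the 46 genes (39.1%) and below them for 4 (8.70%), where the shares over all genes were 26.1% and 18.0%.

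**Figure D1:**
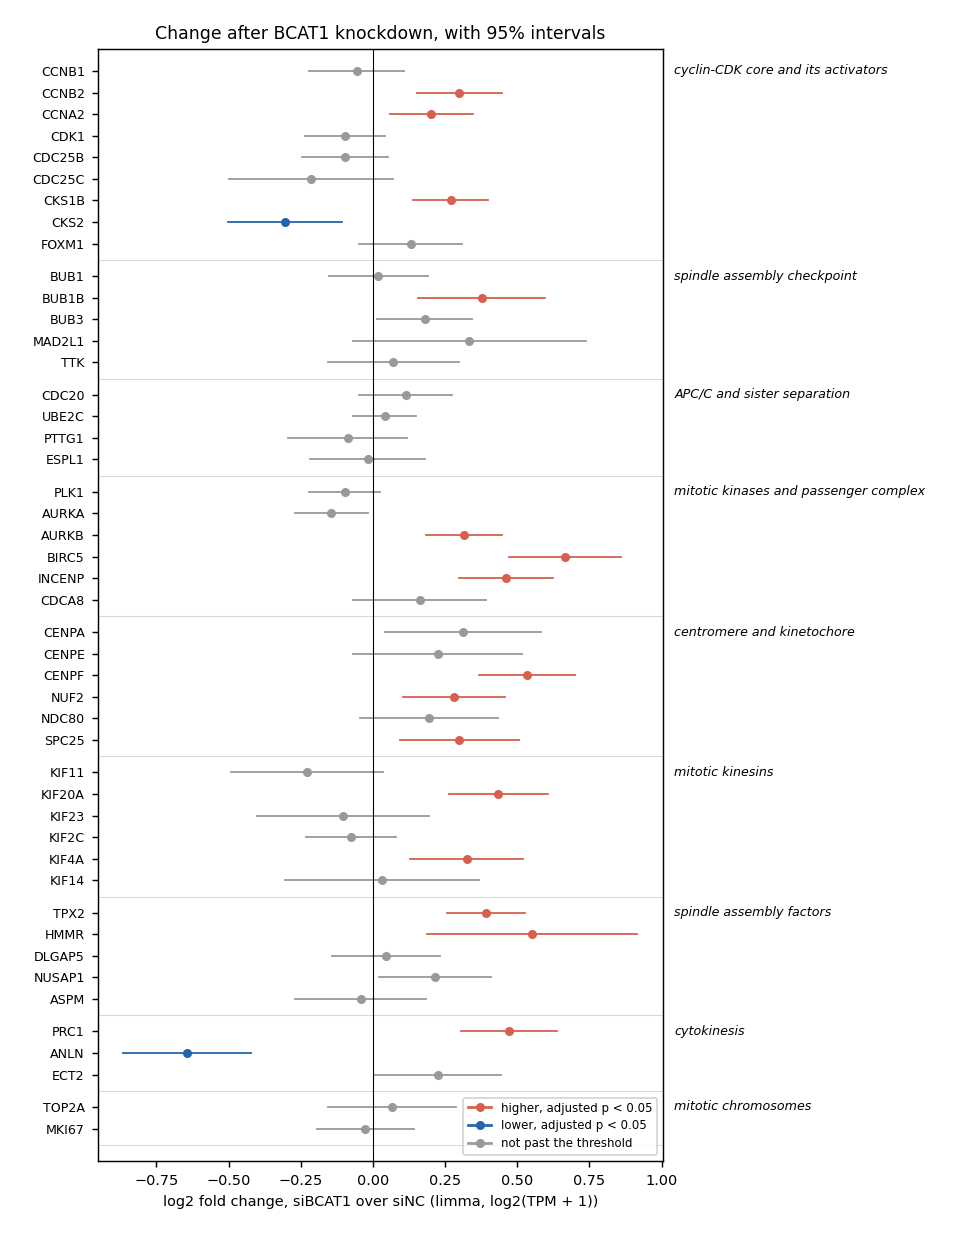
Log2 fold change of each of the 46 genes, siBCAT1 over siNC, as points with 95% intervals from limma, grouped by role, with red for higher, blue for lower and grey for not past the threshold. BIRC5 has the largest rise (0.66) and ANLN the largest fall (-0.64), and the grey intervals include 0 or end near it.

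**Figure D2:**
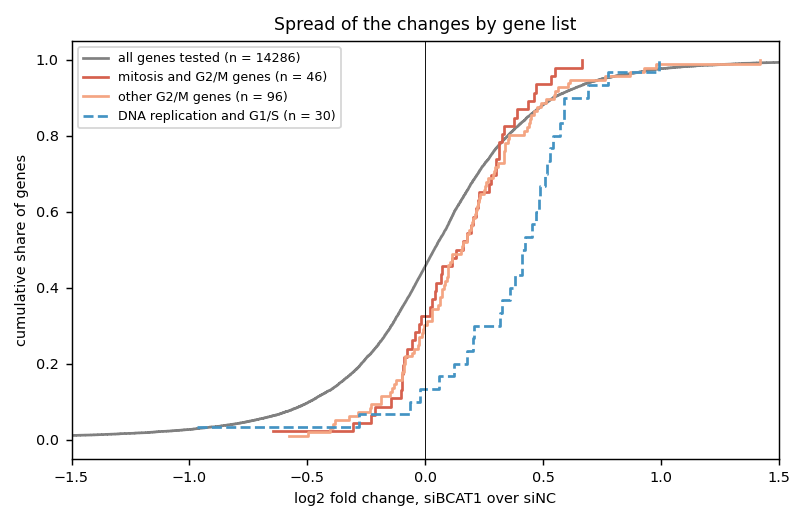
Cumulative share of genes (vertical axis) against log2 fold change (horizontal axis) for all genes tested, the 46 mitosis and G2/M genes, 96 other G2/M genes and 30 DNA replication and G1/S genes, drawn between -1.5 and 1.5. Both G2/M curves run close to each other with a median of 0.15, and the G1/S curve lies farther right with a median of 0.42.

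The roles hold 2 to 9 genes each, and their counts stand beside the 16.7% of all genes that were higher and the 10.4% that were lower. Of the 9 cyclins, kinases and activators that start mitosis, 3 (33.3%) were higher, 1 (11.1%, near the share of all genes) was lower and 5 did not pass the test, with a median log2 fold change of -0.06. CCNB1, the main mitotic cyclin, was at 275, 311 and 268 TPM in siNC and at 277, 283 and 259.8 TPM in siBCAT1 replicates. The groups overlapped (log2 fold change -0.06, 95% interval -0.22 to 0.11). Its partner CDK1 was at 87.6, 86.6 and 83.2 TPM in siNC and at 83.7, 79.5 and 77.5 TPM in siBCAT1 replicates, which overlapped by 1 library (-0.10, interval -0.24 to 0.04). CDK1 passed as lower with quantile normalization (-0.19, adjusted p = 0.0462).

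CCNB2, the second B-type cyclin, was at 106, 109 and 98.8 TPM in siNC and at 134, 130.3 and 123 TPM in siBCAT1 replicates. All siBCAT1 values were above all siNC values, a rise of 0.30 (standard error 0.06, adjusted p = 0.0132), although without siBCAT1 replicate 1 the adjusted p was 0.0506. CCNA2, the cyclin of S phase and G2, was at 78.3, 86.5 and 81.2 TPM in siNC and at 95.7, 96.3 and 91.6 TPM in siBCAT1 replicates. Its rise of 0.20 only just passed (adjusted p = 0.0482), and it did not pass when any library other than siNC replicate 2 was left out (adjusted p from 0.0738 to 0.124) or with either other scaling of the libraries (0.149 and 0.197), a pseudocount of 0.1 (0.0522) or the GC and length correction (0.0727).

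The small CDK-binding proteins CKS1B and CKS2 are close relatives, and they moved in opposite directions. CKS1B, which also helps the ubiquitin ligase SCF-SKP2 recognise p27, was at 439.6, 446 and 441 TPM in siNC and at 544, 495 and 561 TPM in siBCAT1 replicates, a rise of 0.27 (standard error 0.06, adjusted p = 0.0119). CKS2 was at 557, 553 and 526 TPM in siNC and at 446, 389.7 and 494 TPM in siBCAT1 replicates. All siBCAT1 values of CKS2 were below the lowest siNC value, a fall of 0.30 on the log2 scale (standard error 0.08, adjusted p = 0.0354). The CKS1B call was lost with median-ratio scaling (adjusted p = 0.0567) and without siNC replicate 1 or siBCAT1 replicate 1 (0.0503 to 0.0525), and the CKS2 call was lost when any library but siBCAT1 replicate 3 was left out (0.072 to 0.123). The copies of CKS1B elsewhere in the genome summed to 0.832 TPM, the most of any member. How many reads map to both was not tested.

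The remaining genes of this role, the phosphatases CDC25B and CDC25C that activate CDK1 and the transcription factor FOXM1 that drives G2 genes, did not pass. FOXM1 was at 128, 146 and 133 TPM in siNC and at 137, 149.7 and 158 TPM in siBCAT1 replicates (0.13, interval -0.05 to 0.31), and CDC25B and CDC25C had values of -0.10 and -0.21.

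Among the 5 genes of the spindle assembly checkpoint, 1 (20.0%, near the 16.7% of all genes) was higher and none was lower. All 5 had values above 0, as did 7771 of the 14286 genes tested, and the median was 0.18. BUB1B, which encodes the checkpoint protein BUBR1, was at 46.3, 46.7 and 40.4 TPM in siNC and at 64.0, 53.4 and 56.9 TPM in siBCAT1 replicates. Its groups did not overlap, and its rise of 0.38 (standard error 0.09, adjusted p = 0.0242) did not pass when siNC replicate 1, siNC replicate 3, siBCAT1 replicate 1 or siBCAT1 replicate 3 was left out (0.0613 to 0.0766). BUB1, the kinase that recruits BUBR1 to kinetochores, was at 42.4, 43.0 and 39.9 TPM in siNC and at 45.2, 41.5 and 40.4 TPM in siBCAT1 replicates (0.02, interval -0.15 to 0.19). MAD2L1, which blocks the APC/C activator, had the largest standard error of the list (0.17), at 52.6 to 79.3 TPM in siNC and 66.3 to 92.0 TPM in siBCAT1 libraries, and its value of 0.33 did not pass (adjusted p = 0.194). The values of BUB3 (0.18, adjusted p = 0.0999) and of the kinase TTK (0.07) did not pass either. BUB3 passed with the GC and length correction (0.22, adjusted p = 0.0214) and without siNC replicate 2 (0.25, adjusted p = 0.0136), and the signs of BUB1 and TTK were negative with quantile normalization.

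None of the 4 genes of the APC/C and of sister separation passed the test. Of these, UBE2C, CDC20 and PTTG1 ranked 1, 4 and 5 of the 46 genes by mean level and ESPL1 ranked 37. UBE2C, the ubiquitin-conjugating enzyme of the APC/C, had the highest mean of all 46 genes (498 TPM) and lay between 472 and 513 TPM in all 6 libraries (0.04, interval -0.07 to 0.15, with a negative sign under median-ratio scaling). CDC20, the activator of the APC/C, had a value of 0.11 that passed only without siNC replicate 2 (0.18, adjusted p = 0.0336), and PTTG1, the separase inhibitor securin, one of -0.09. ESPL1, which encodes separase, was at 35.3, 29.9 and 31.2 TPM in siNC and at 33.1, 31.2 and 30.7 TPM in siBCAT1 replicates, with groups that overlapped throughout (-0.02, interval -0.22 to 0.18).

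The chromosomal passenger complex, which corrects faulty attachments and acts again in cytokinesis, held the largest rise of the list. BIRC5 (survivin), which targets the complex to centromeres, was at 48.9, 59.1 and 51.1 TPM in siNC and at 87.2, 84.6 and 81.5 TPM in siBCAT1 replicates. The groups were well apart, with means of 53.0 ± 5.36 and 84.4 ± 2.87 TPM (SD, n = 3 each), and the log2 fold change was 0.66 (standard error 0.08, limma, adjusted p = 0.0019). INCENP, the scaffold of the complex, was at 35.9, 35.2 and 34.0 TPM in siNC and at 51.7, 47.1 and 47.2 TPM in siBCAT1 replicates, a rise of 0.46 (adjusted p = 0.00363). AURKB, its kinase, was at 194, 203 and 217 TPM in siNC and at 261, 251 and 252 TPM in siBCAT1 replicates, a rise of 0.32 (adjusted p = 0.00704). CDCA8 (borealin), the remaining subunit, had a value of 0.16 with overlapping groups.

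PLK1 and AURKA, grouped here with the passenger complex, had values below 0 that did not pass. PLK1, which acts in centrosome maturation and in cytokinesis, was at 150.9, 159.8 and 152 TPM in siNC and at 141, 143 and 148 TPM in siBCAT1 replicates. Its groups did not overlap, but the value of -0.10 did not pass (interval -0.22 to 0.02, adjusted p = 0.206), and it passed with quantile normalization (-0.22, adjusted p = 0.017). AURKA, the centrosomal Aurora kinase, was at 158 to 162 TPM in siNC and 139.6 to 152 TPM in siBCAT1 libraries, without overlap, and its value of -0.14 did not pass (adjusted p = 0.0876). AURKA was called lower with median-ratio scaling (-0.19, adjusted p = 0.0352), quantile normalization (-0.27, adjusted p = 0.0108) and the GC and length correction (-0.20, adjusted p = 0.0266).

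**Figure D3:**
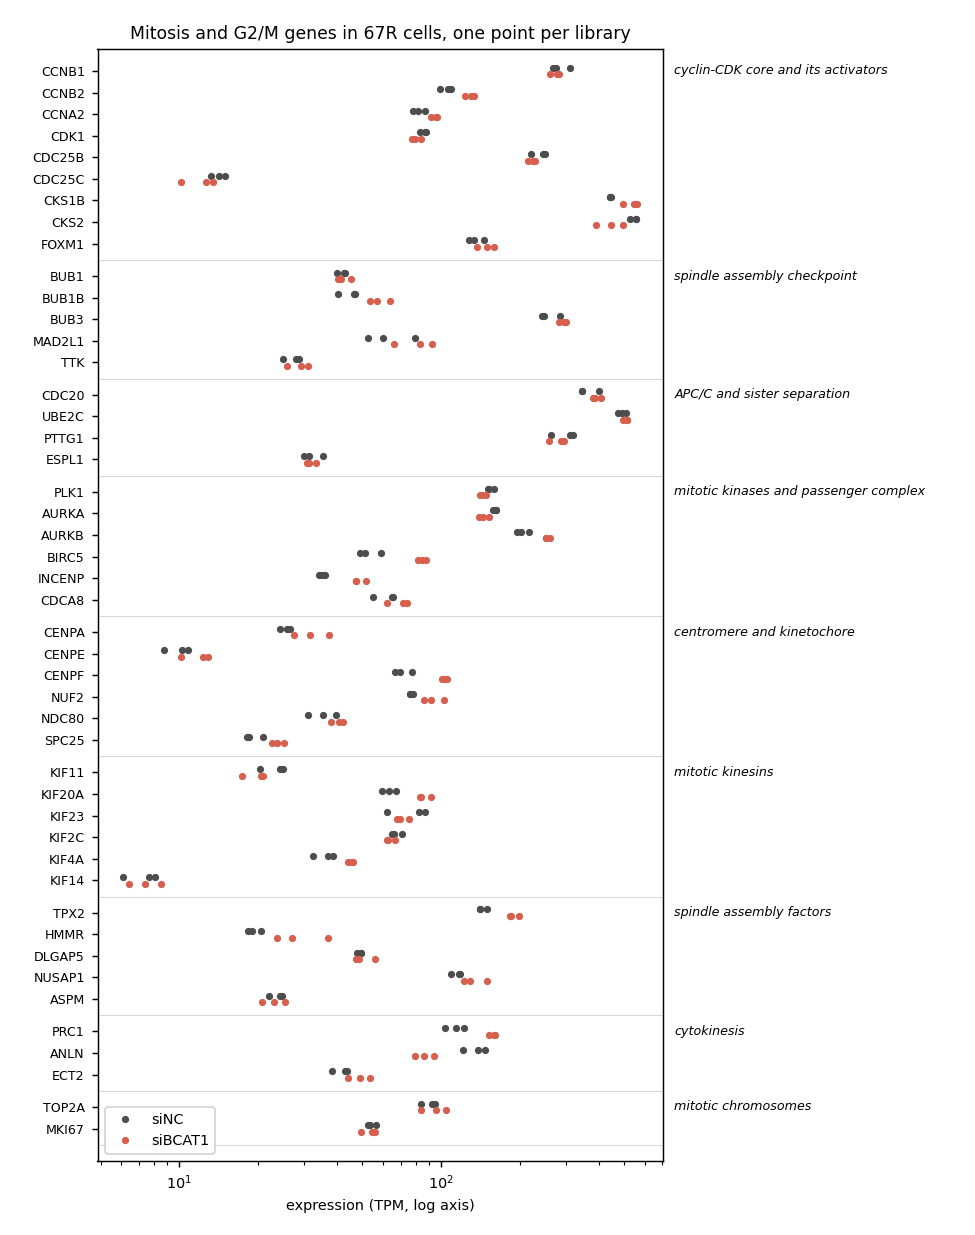
TPM of each of the 46 genes (logarithmic horizontal axis), grouped by role, with one point per library in grey for siNC and red for siBCAT1. The genes span from KIF14 (mean 7.36 TPM) to UBE2C (mean 498 TPM), and the red points of BIRC5, INCENP, CENPF and PRC1 lie to the right of the grey ones while those of ANLN lie to the left.

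The centromere and kinetochore genes had the highest median of the 9 roles. All 6 had values above 0, 3 were higher and none was lower, with a median of 0.29. CENPF, a large protein of the outer kinetochore that accumulates in G2, was at 66.4, 77.0 and 69.9 TPM in siNC and at 106, 100.4 and 104 TPM in siBCAT1 replicates. The groups were separated by more than their spread, a rise of 0.53 (standard error 0.07, adjusted p = 0.00227). NUF2 and SPC25, subunits of the NDC80 complex that holds microtubules, rose by 0.28 (adjusted p = 0.0315) and 0.30 (adjusted p = 0.0428). The NUF2 call was lost when any library but siBCAT1 replicate 3 was left out (0.0631 to 0.0941), and the SPC25 call when any but siNC replicate 2 was left out (0.0725 to 0.133). With quantile normalization and with the GC and length correction neither passed (NUF2 0.0959 and 0.0643, SPC25 0.0766 and 0.0565), nor did SPC25 with median-ratio scaling (0.072). NDC80 itself (0.19), the kinesin CENPE (0.22) and the centromeric histone CENPA (0.31, adjusted p = 0.0858) did not pass, and of these CENPA had groups that did not overlap. CENPA passed without siBCAT1 replicate 1 (0.41, adjusted p = 0.0481).

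Of the 6 mitotic kinesins, 2 (33.3%) were higher, none was lower and 4 did not pass, with a median of -0.02. KIF20A, which relocates the passenger complex to the central spindle, was at 63.2, 67.5 and 59.4 TPM in siNC and at 91.1, 83.7 and 82.9 TPM in siBCAT1 replicates, a rise of 0.43 (standard error 0.07, adjusted p = 0.00557). KIF4A, a chromokinesin that works with PRC1, rose by 0.32 (adjusted p = 0.0268), a call that was lost without any library except siNC replicate 2 (0.0558 to 0.0842) and with quantile normalization (0.0577). KIF11, the kinesin that separates spindle poles, had a value of -0.23 (interval -0.49 to 0.03), the centralspindlin subunit KIF23 one of -0.10, the microtubule depolymerase KIF2C one of -0.08 and KIF14 one of 0.03.

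Among the 5 spindle assembly factors 2 were higher. TPX2, the activator of Aurora A on spindle microtubules, was at 140.4, 150.0 and 141 TPM in siNC and at 199, 184 and 184 TPM in siBCAT1 replicates, a rise of 0.39 (standard error 0.06, adjusted p = 0.00334). HMMR, a spindle and hyaluronan-binding protein, was at 18.3, 20.4 and 19.0 TPM in siNC and at 36.8, 23.6 and 27.0 TPM in siBCAT1 replicates. All siBCAT1 values of HMMR were above the siNC values, with replicate 1 far above the other two, and its rise of 0.55 (standard error 0.16, adjusted p = 0.0372) was lost when any library but siBCAT1 replicate 2 was left out (0.0587 to 0.130). NUSAP1, which bundles microtubules, had groups that did not overlap and a value of 0.21 (adjusted p = 0.0949), while DLGAP5 (0.04) and ASPM (-0.04) had overlapping groups and signs that turned with the scaling or with the GC and length correction.

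Both directions met in cytokinesis. PRC1, which bundles the antiparallel microtubules of the central spindle, was at 114, 122 and 104 TPM in siNC and at 161, 159 and 153 TPM in siBCAT1 replicates, a rise of 0.47 (standard error 0.07, adjusted p = 0.00369). ANLN (anillin), the scaffold of the contractile ring, was at 138, 148 and 121 TPM in siNC and at 94.0, 85.7 and 79.3 TPM in siBCAT1 replicates. Every siBCAT1 value of ANLN was below every siNC value, with means of 136 ± 13.3 and 86.3 ± 7.40 TPM (SD, n = 3 each), and the log2 fold change was -0.64 (standard error 0.09, limma, adjusted p = 0.00328). ECT2, the exchange factor that activates RhoA at the cleavage site, had groups that did not overlap and a value of 0.23 that did not pass (adjusted p = 0.115).

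ANLN lies on the plus strand of chromosome 7 (chr7:36389806-36453791, GENCODE 29 on GRCh38) and overlaps KIAA0895 on the opposite strand, which was at 6.48 TPM and was also lower (-0.65, adjusted p = 0.0223). PRC1 overlaps AC068831.7 on its own strand, which was at 30.1 TPM and was also higher (0.50, adjusted p = 0.0234), and NUSAP1 overlaps AC087721.2 on its own strand (30.7 TPM, 0.33, adjusted p = 0.0243). CENPA overlaps SLC35F6 on its own strand, which was at 24.4 TPM and had a value of -0.06 (adjusted p = 0.616). Reads of genes that overlap on 1 strand could have been split between them. Whether strand was used in the counting is not given in the sources used here. KIF4A overlaps PDZD11 on the opposite strand, which at 104 TPM was more abundant than KIF4A and had a value of -0.01. In all, 12 of the 46 genes overlap a gene with a mean of 1 TPM or more, and the part of these neighbours in the values was not tested.

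TOP2A, which untangles sister chromatids, and MKI67, the chromosome coat protein Ki-67 used as a proliferation marker, did not pass. TOP2A was at 92.5, 94.8 and 83.6 TPM in siNC and at 105, 95.8 and 84.0 TPM in siBCAT1 replicates (0.07, interval -0.15 to 0.29, with a negative sign under quantile normalization). MKI67 was at 52.5, 56.3 and 53.7 TPM in siNC and at 55.8, 49.5 and 54.3 TPM in siBCAT1 replicates, so that all 6 libraries lay within 49.5 and 56.3 TPM (-0.03, interval -0.19 to 0.14, with a positive sign after the GC and length correction).

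The ratio of 2 related genes can be taken within each library, and 3 such ratios were set side by side. The ratio of CKS1B to CKS2 was 0.789, 0.806 and 0.838 in siNC and 1.22, 1.27 and 1.14 in siBCAT1 replicates. The ratio of CCNB2 to CCNB1 was 0.387, 0.350 and 0.369 in siNC and 0.482, 0.460 and 0.474 in siBCAT1 replicates. The ratio of AURKB to AURKA was 1.20, 1.25 and 1.37 in siNC and 1.72, 1.73 and 1.80 in siBCAT1 replicates. These 3 pairs were chosen after their values were seen, so no test is given. In 2 of them one partner, CCNB1 or AURKA, did not pass the test on its own. A ratio within a library does not depend on any single factor by which a library is scaled.

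**Figure D4:**
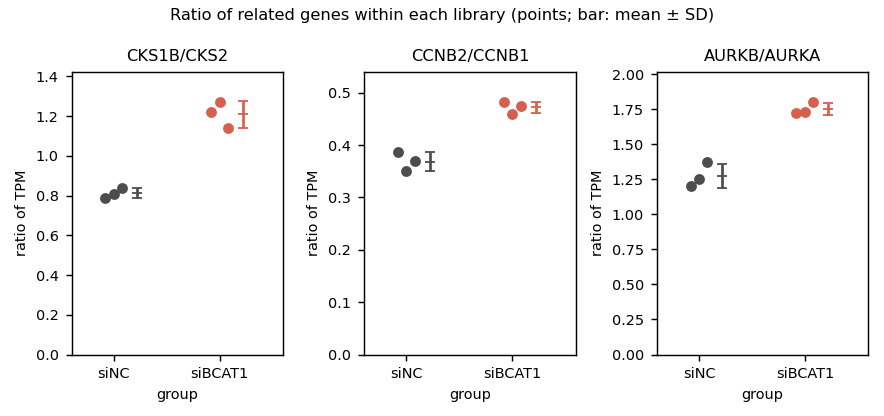
Ratio of TPM within each library for CKS1B to CKS2, CCNB2 to CCNB1 and AURKB to AURKA (vertical axes from 0), with one point per library and the mean ± SD beside the points. All siBCAT1 points lie above all siNC points in each pair, with means of 0.811 and 1.21 for CKS1B to CKS2.

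The spread between replicates was not small beside the shift of the list. The summed level of the 46 genes was 5518, 5660 and 5381 TPM in siNC and 6015, 5726 and 5831 TPM in siBCAT1 libraries, and the groups did not overlap. The median deviation of the list from the mean of the 6 libraries was -0.07, -0.01 and -0.12 in siNC and 0.15, 0.06 and 0.01 in siBCAT1 replicates on the log2 scale, with an SD of 0.06 in siNC and 0.07 in siBCAT1. That of all genes tested was 0.02, -0.03 and -0.06 in siNC and 0.07, 0.02 and -0.02 in siBCAT1 replicates. siBCAT1 replicate 1 was the highest of its group for 34 of the 46 genes and siBCAT1 replicate 3 the lowest for 32, and over all genes tested the same libraries were highest for 45.8% and lowest for 43.5%. In siNC, replicate 2 was the highest for 30 of the 46 and replicate 3 the lowest for 28, beside 34.5% and 41.5% of all genes tested.

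**Figure D5:**
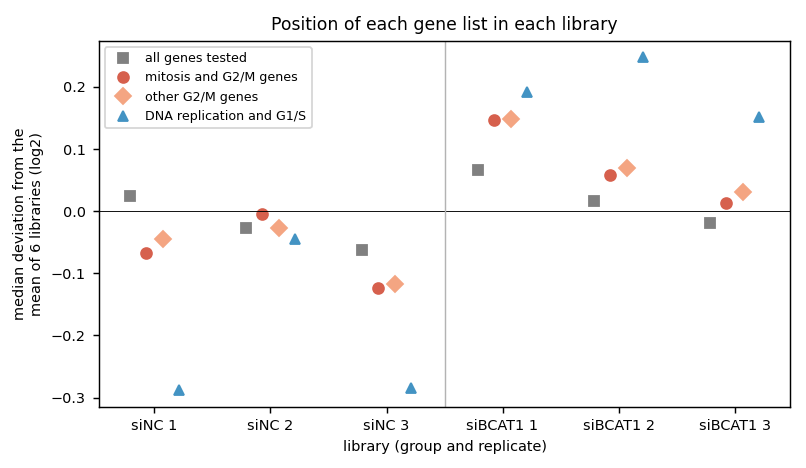
Median deviation of each gene list from the mean of the 6 libraries (log2, vertical axis) in each library (horizontal axis), with squares for all genes tested, circles for the mitosis and G2/M genes, diamonds for other G2/M genes and triangles for DNA replication and G1/S genes. The circles rise from between -0.12 and -0.01 in siNC to between 0.01 and 0.15 in siBCAT1, and the triangles are farther apart between the groups.

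Which single genes passed depended on the libraries used. Of the 17 genes called, 8 kept their call in all 14 alternatives run: BIRC5, CENPF, PRC1, INCENP, KIF20A, TPX2, AURKB and ANLN. Without a filter on low values CCNA2, CKS2, BUB1B, NUF2, SPC25, KIF4A and HMMR lost theirs (adjusted p from 0.0556 to 0.108). The number of genes called higher was 8 without siNC replicate 1, 9 without siNC replicate 3 and 8 without siBCAT1 replicate 1, where the shares were 17.4%, 19.6% and 17.4% beside 10.7%, 10.7% and 10.0% of all genes tested. The number called lower was 1 (ANLN) without any single library other than siBCAT1 replicate 3, where 5.57% to 10.0% of all genes were lower.

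A wider list of 96 other G2/M genes gave the same median of 0.15. Of these, 26 (27.1%) were higher and 3 (3.12%) lower, beside 16.7% and 10.4% of all genes. The 26 became 16 without siNC replicate 1, 15 without siNC replicate 3, 15 without siBCAT1 replicate 1 and 17 without siBCAT1 replicate 2, where 10.0% to 10.8% of all genes were higher. The counts of the lists within these 96 genes stand beside the same shares. Among kinetochore and checkpoint genes 7 of 23 were higher, led by ZW10, which brings dynein to kinetochores, at 8.18, 9.27 and 7.35 TPM in siNC and 22.4, 23.6 and 25.1 TPM in siBCAT1 replicates (1.42, adjusted p = 0.000286). CENPH (0.93, adjusted p = 0.000387) and ZWINT, which binds ZW10 (0.76, adjusted p = 0.000955), followed. Among 12 cohesin genes 3 were higher, led by SMC1A, a core subunit of the ring (0.98, adjusted p = 0.000269), and among 8 condensin genes 2, NCAPD3 (0.44) and NCAPD2 (0.33).

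Among 16 subunits and cofactors of the APC/C 4 were higher, CDC26 (0.44) the most, and ANAPC10 was lower (-0.50). Among 12 further regulators of G2/M (kinases, phosphatases and their partners such as BORA, GTSE1, CCNH and MNAT1) 4 were higher, with CDC25A, which activates CDK2 and CDK1, at 0.87 (adjusted p = 0.0038), and WEE1, the kinase that restrains CDK1, was lower (-0.38, adjusted p = 0.0291). Among 14 further genes of kinesins, spindle proteins and cytokinesis 4 were higher, with TACC3 at 0.47 and CEP55 at 0.46, and KIF18B was lower (-0.39, adjusted p = 0.0101). Of 11 subunits of the DREAM and MuvB complexes, which repress or activate G2/M promoters, 2 (18.2%, near the 16.7% of all genes) were higher, MYBL2 (0.61, adjusted p = 0.00127) and LIN52 (0.45). Of the genes named so far from these lists, NCAPD2, ANAPC10 and WEE1 lost their calls when 1 of several libraries was left out. These libraries included siNC replicate 1, siNC replicate 3 and siBCAT1 replicate 1 (adjusted p from 0.0512 to 0.148). Among the other genes counted as higher, MAD1L1, CENPN, SKA3, ANAPC1, ANAPC13, UBE2D1, MASTL, CDK2, MNAT1, KIF15 and KNSTRN also lost theirs in this way (0.0508 to 0.145). SMC3, CDCA5 and CENPU kept theirs.

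Genes that act earlier in the cycle were counted in the same way. Of 30 DNA replication and G1/S genes, 19 (63.3%) were higher and 1 (3.33%) was lower, beside 16.7% and 10.4% of all genes, with a median of 0.42. In this list siNC replicate 2 was the highest of its group for 26 genes (86.7%, beside 34.5% of all genes tested). Its median deviation was -0.04 on the log2 scale, against -0.29 and -0.28 in siNC replicates 1 and 3. The 19 became 9 without siNC replicate 1, 10 without siNC replicate 3, 11 without siBCAT1 replicate 1, 10 without siBCAT1 replicate 2 and 12 without siBCAT1 replicate 3, where 10.0% to 11.1% of all genes were higher. E2F1, the transcription factor of S-phase entry, rose by 0.99 (adjusted p = 0.00292), and the replication factors CDC45 and ORC1 rose by 0.77 and 0.69, while CCNE1, the cyclin of the G1 to S transition, was lower (-0.97, adjusted p = 0.00198). Of 11 genes in a list of CDK inhibitors, D-type cyclins and RB1 10 were tested, none was higher and 5 were lower. The inhibitors CDKN1A (p21) and CDKN1B (p27) fell by 1.89 and 1.37 on the log2 scale (adjusted p = 0.000662 and 0.000418), and CDKN1C (p57) and CCND1 (cyclin D1) fell by 1.36 and 1.17. Whether the change of the mitotic genes differed from that of these lists was not tested.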

How the data were processed

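RNA-seq libraries of 67R cells, 3 siNC and 3 siBCAT1, were grouped and numbered as their labels give them. The deposited table, made by the authors, gives the TPM of each gene in each library beside a gene length. Per the labels and methods, they prepared stranded mRNA libraries and used fastp, HISAT2 and StringTie on GRCh38, and the versions, annotation and strand setting are not given in the sources used here. TPM keeps no total depth, so no counting error is given, and the precision rests on 3 libraries per group. A two-sided exact permutation test of 3 against 3 cannot go below 0.1.

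Fold changes are on the scale of log2(TPM + 1), which understates those of weakly expressed genes. A linear model with an eBayes trend (limma 3.58.1, R 4.3.3), tested on simulated data first, was fitted to the 14286 of 60664 genes whose mean reached 1 TPM. Tests were two-sided, and p-values were adjusted by Benjamini-Hochberg over all these genes, with a threshold of 0.05. Intervals are 95% intervals of limma. The 46 genes and the other gene lists were chosen with earlier results of these data known, so no list was tested as a set. All 46 genes are named by role, with values in every library for BCAT1, for up to 8 with the largest rise and 8 with the largest fall past the threshold, for CCNB1, CDK1, CCNA2, PLK1, AURKB, BUB1B, TOP2A, MKI67 and FOXM1 and for the 3 with the smallest change. From each other list up to 3 rises and 3 falls are named, and CCND1 is named as a further fall among the CDK inhibitors and D-type cyclins. Further genes of the other G2/M lists are named only to say whether their calls held. CCNB2, CKS1B and the 3 ratios were added after their values were seen.

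Gene positions, overlaps and copies came from GENCODE 29 on GRCh38, and promoters from RefSeq on GRCh38.p14. Alternatives were no filter, a mean of 5 TPM, a pseudocount of 0.1, median-ratio scaling, quantile normalization, a replicate block, a loess fit on GC content and gene length (span 0.5) taken off each library, both of these together, and each library left out in turn. Summaries and figures were made in Python 3.11.15 (pandas 2.3.3, numpy 2.4.6, matplotlib 3.10.9).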

Additional observations from a re-analysis of the deposited data

How the results depend on the processing

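The fall of BCAT1 kept its direction and its call in every alternative run, between -2.28 and -2.03 with each library left out. The median log2 fold change of the 46 mitotic genes was 0.146, between 0.0929 and 0.183 with each library left out and 0.0727 with quantile normalization. With each library left out, 8 to 15 of these genes were higher and 1 to 2 lower, beside 10.0% to 15.9% and 5.57% to 10.0% of all genes. In these fits 18 to 25 of the 46 had siBCAT1 values above all siNC values (28.4% to 31.8% of all genes) and 4 to 7 below them (19.4% to 24.3% of all genes). In the same fits 15 to 27 of the other G2/M genes were higher and 1 to 4 lower, and 9 to 19 of the DNA replication and G1/S genes were higher. These counts stand beside the same 10.0% to 15.9% of all genes higher and 5.57% to 10.0% lower. Without a filter, where 31860 genes were tested, 9 of the 46 (19.6%) were higher and 1 (2.17%) was lower, beside 5.04% and 3.01% of all genes, 16 of the other G2/M genes were higher and 1 lower, and 10 of the G1/S genes were higher. With a mean of at least 5 TPM, 29 of the other G2/M genes were higher and 6 lower, beside 21.7% and 12.5% of all genes. Median-ratio scaling gave 23 of the other G2/M genes higher and 8 lower, beside 13.7% and 12.6% of all genes. It gave 17 of the 46 with siBCAT1 values above and 7 below all siNC values (22.4% and 21.9% of all genes). Quantile normalization gave 20 of the other G2/M genes higher and 8 lower, and 11 of the 46 higher and 5 lower, beside 14.3% and 13.1% of all genes. It gave 15 of the 46 above and 9 below all siNC values (22.8% and 21.8% of all genes). The GC and length correction gave 29 of the other G2/M genes higher and 5 lower, beside 17.2% and 11.5% of all genes. It gave 19 of the 46 above and 8 below all siNC values (26.0% and 19.3% of all genes). The cause of these differences was not tested.

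The replicate numbers share no stated origin. Same-numbered libraries deviated together with correlations of 0.0844, 0.102 and 0.124, and each library correlated best with its own number, a hint from the data and not from the design. With the replicate block 4568 genes were called in place of 3865, and 19.4% of all genes were higher and 12.6% lower. Beside these shares, 16 of the 46 were higher and 3 lower, and 32 of the other G2/M genes were higher and 5 lower. Among the 46 the block added MAD2L1 (adjusted p = 0.0211), ECT2 (0.0422) and KIF11 (lower, 0.0483) and removed HMMR (0.0524). The block together with the GC and length correction gave 17 of the 46 higher and 4 lower, beside 19.3% and 13.1% of all genes. Of the other G2/M genes 30 were higher and 5 lower. With these settings 19 of the 46 lay above and 8 below all siNC values (26.0% and 19.3% of all genes). MAD2L1 (0.0142), ECT2 (0.039), KIF11 (0.0448), CENPE (0.045), BUB3 (0.0258) and AURKA (0.0257) passed there, and CCNA2 (0.0729) and NUF2 (0.0692) did not.

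The genes whose sign turned were among those that did not pass the test. Median-ratio scaling gave BUB1 -0.0291, UBE2C -0.00746, KIF14 -0.012 and DLGAP5 -0.0033. Quantile normalization gave BUB1 -0.0641, TTK -0.00499, DLGAP5 -0.046 and TOP2A -0.0199. The GC and length correction, with or without the replicate block, gave BUB1 -0.00981, UBE2C -0.0232, ESPL1 0.0564, ASPM 0.0257 and MKI67 0.0543. With libraries left out in turn, BUB1 lay between -0.0277 and 0.0517, KIF14 between -0.0752 and 0.121, DLGAP5 between -0.0278 and 0.0894, TOP2A between -0.00763 and 0.15, ESPL1 between -0.0678 and 0.0496, CCNB1 between -0.0975 and 0.0101, MKI67 between -0.0622 and 0.0235 and ASPM between -0.112 and 0.0277. Of the 29 genes not past the threshold, 10 passed in at least 1 alternative.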
